A study of Mus musculus with 12 samples.

Results

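The genes of the respiratory chain and of the ATP synthase were taken from the table of normalized counts by their symbols. They are the protein-coding genes whose symbol starts with mt-Nd, mt-Co, mt-Cytb or mt-Atp, with Ndufa, Ndufb, Ndufc, Ndufs or Ndufv, with Uqcr, with Cox4 to Cox8 or with Atp5, together with Sdha, Sdhb, Sdhc and Sdhd. This gave 103 of 17202 genes, of which 13 lie in the mitochondrial genome and 90 in the nuclear genome. The mitochondrial-encoded genes comprise 7 subunits of complex I (NADH dehydrogenase), 1 of complex III (cytochrome bc1), 3 of complex IV (cytochrome c oxidase) and 2 of complex V (ATP synthase). The nuclear-encoded genes comprise 36 subunits and 8 assembly factors of complex I, all 4 subunits of complex II (succinate dehydrogenase), 8 genes of complex III, 17 of complex IV and 17 of complex V. Ndufa4 and Ndufa4l2 carry a complex I name but were placed with complex IV, where NDUFA4 is now counted.

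RNA of the cortex was sequenced from 12 male mice, 3 in each of 4 groups. CD mice carried a heterozygous deletion from Gtf2i to Fkbp6, the mouse counterpart of the Williams-Beuren syndrome critical region (WBSCR), and WT mice did not; the mice came from a cross with Thy1-YFP animals, in which pyramidal neurons are labelled, on a mostly C57BL/6J background. VERCUR mice of either genotype (VERCUR-WT, VERCUR-CD) drank curcumin and verapamil, for which the labels give doses of 60 and 10 mg/kg/day from 8 weeks of age for 1 month, and VEH mice (VEH-WT, VEH-CD) drank water with the solvent DMSO, although the labels call them untreated. The labels give an age of 16 weeks for all mice, whereas the methods of the study give a lower verapamil dose and an earlier end.

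Complexes I to IV pass electrons from NADH and succinate to oxygen and, except for complex II, pump protons out of the mitochondrial matrix; complex V lets the protons back in and makes ATP. Complexes I, III, IV and V are built from subunits of both genomes, complex II from nuclear-encoded subunits alone. The mitochondrial genes are transcribed as long joined transcripts of each DNA strand and then cut apart, and neurons depend heavily on the ATP made in this way.

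The deletion was visible in every CD mouse. The median over the 19 WBSCR genes, relative to the mean of VEH-WT, was 0.468 to 0.531 in the 6 CD mice and 0.96 to 1.04 in the 6 WT mice. Between 40287299 and 56481666 reads were counted per mouse. The 6 markers of cortical neurons summed to 126848 to 142919 normalized counts per mouse, whereas the 3 markers of the choroid plexus summed to 69.3 to 153. The 4 oligodendrocyte markers ranged from 64065 to 187748 and the 5 striatal markers from 6833 to 29706 within the 12 mice, and the part of these differences in the values below was not tested. VERCUR-CD mouse 2 stood apart among the respiratory chain genes, with the lowest value of the 12 mice for 52 of the 90 nuclear-encoded genes and the highest for 8 of the 13 mitochondrial-encoded genes. Several results that rest on this mouse are given with and without it.

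Before any level of the mitochondrial-encoded genes can be read, their copies in the nuclear genome have to be considered. A stretch of chromosome 1 (GRCm38, chr1:24611535-24616197, GENCODE M21) holds 7 unprocessed pseudogenes that copy members of the set on the minus strand, and 5 of them match the mitochondrial gene at every aligned base. The sequences of mt-Co2, which encodes a catalytic subunit of complex IV, are shown because a read from this window carries no base that tells the mitochondrial gene from its chromosome 1 copy Gm28661. A copy on chromosome 2, Gm13341, differs at 7 of the 100 bases, in capitals. The windows lie at chrM:7457-7556 (plus strand), chr1:24615022-24615121 (minus strand) and chr2:22587431-22587530 (minus strand).
mt-Co2: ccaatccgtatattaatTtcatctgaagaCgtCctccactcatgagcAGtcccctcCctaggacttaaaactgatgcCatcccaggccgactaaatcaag
Gm28661: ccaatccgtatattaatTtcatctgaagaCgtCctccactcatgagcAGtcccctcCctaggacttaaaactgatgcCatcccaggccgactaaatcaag
Gm13341: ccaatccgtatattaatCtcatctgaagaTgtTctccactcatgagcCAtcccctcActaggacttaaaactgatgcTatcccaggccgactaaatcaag

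Of the reads assigned to mt-Co2 or Gm28661, 95.8% were assigned to the copy, with 12408 normalized counts on average for mt-Co2 and 280989 for Gm28661. Gm13341 held 155. For mt-Co2 the identical copy thus held most of the reads and the copy with differing bases very few. The identical copy also held most reads for mt-Co3 and Gm28437 (0 differing bases of 783, with 92.6% to 96.8% of the reads of the pair in the copy) and for mt-Atp6 and Gm10925 (0 of 678, with 96.2% to 97.4%). For mt-Co2 the range over the mice was 94.0% to 97.0%.

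The 5' ends of mt-Nd3, a complex I subunit, and of its copy Gm28438 are shown because the only difference in 345 bases falls there, at T3C counted from the first base of mt-Nd3 (chrM:9459-9518, plus strand; chr1:24613060-24613119, minus strand).
mt-Nd3: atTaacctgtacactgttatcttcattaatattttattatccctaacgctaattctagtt
Gm28438: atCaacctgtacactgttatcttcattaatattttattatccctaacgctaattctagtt

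Gm28438 held 82.2% of the reads of that pair. In mt-Co1, the core catalytic subunit of complex IV, the copy covers 492 of 1545 bases, with 6 differing bases that all lie in its first stretch (chrM:6381-6480, plus strand; chr1:24616098-24616197, minus strand; differing bases in capitals).
mt-Co1: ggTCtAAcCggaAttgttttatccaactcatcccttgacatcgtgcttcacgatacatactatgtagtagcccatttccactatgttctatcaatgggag
Gm29216: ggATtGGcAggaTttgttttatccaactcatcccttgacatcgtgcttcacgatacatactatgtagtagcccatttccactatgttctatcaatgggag

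Gm29216 held 16.9% of the reads of this pair, from 8.8% in VERCUR-CD mouse 2 to 22.3% in VERCUR-CD mouse 1. Gm10222, identical to mt-Nd4l over 294 bases, held 32.7%, so an identical copy did not always hold most of the reads. What set the split of reads was not tested. The copy of mt-Nd4, Gm28439, matched at all 876 aligned bases, and its reads were not analysed here. The other mitochondrial-encoded genes, mt-Nd1, mt-Nd5, mt-Nd6, mt-Cytb and mt-Atp8, shared no stretch of 100 bases with another gene, and mt-Nd2 shared 3.2% of such stretches with a copy on chromosome 2. Among the nuclear-encoded genes 57 of 90 shared no stretch and 3 (Ndufaf2, Atp5g2 and Atp5o) shared over 25%, so their values are uncertain too.

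Levels of the mitochondrial-encoded genes per kilobase of transcript spanned a wide range, and the copies set much of their order. mt-Co1 stood highest with 371216 normalized counts per kb (mean of 12 mice), followed by mt-Cytb (204199), which encodes the mitochondrial subunit of complex III, and mt-Nd1 (184876). mt-Co3, mt-Co2 and mt-Atp6 came to 21683, 18140 and 13068 per kb as assigned, and to 435214, 428944 and 419073 per kb with the chromosome 1 copy added. With the copies added, these 3 genes thus stood next to mt-Co1 (445796 per kb). mt-Nd6, the member on the opposite strand to the others, came to 17336 per kb. Because mt-Atp8 overlaps mt-Atp6 and mt-Nd4l overlaps mt-Nd4, and no strand setting is given in the sources used here, the split of reads between these pairs, and between mt-Nd6 and transcripts of the other strand, is uncertain.

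**Figure D1:**
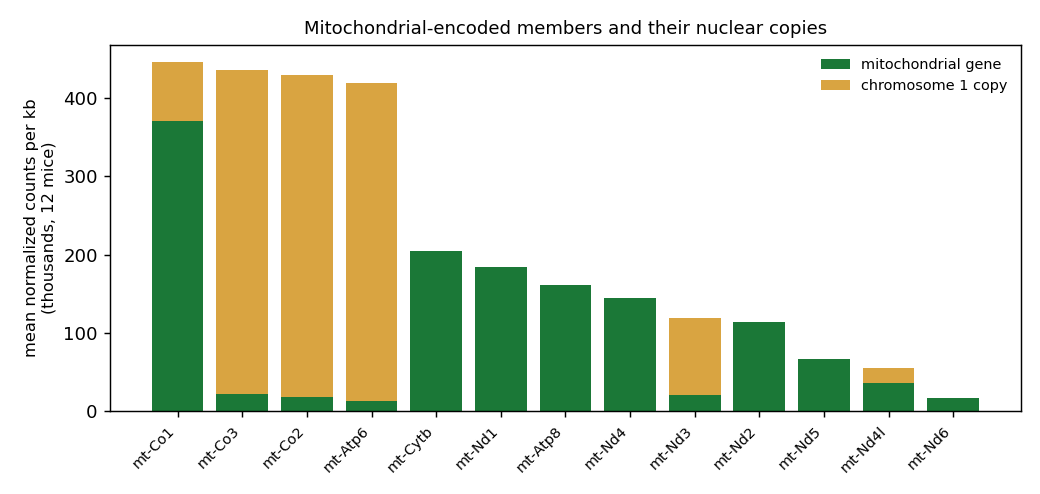
Mean normalized counts per kb of transcript (in units of 1000, 12 mice) for the 13 mitochondrial-encoded genes, with the part assigned to the gene in green and the part assigned to its chromosome 1 copy in yellow. The bars of mt-Co3, mt-Co2 and mt-Atp6 are almost wholly yellow, and with the copy they reach 419073 to 435214 per kb, next to mt-Co1; the copy of mt-Nd4 is not part of the bars.

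The nuclear-encoded genes had a median of 4039.7 normalized counts per kb, against 67324 for the mitochondrial-encoded genes as assigned. Cox8a, a small structural subunit of complex IV, was highest (28075 per kb), and Atp5b, the catalytic beta subunit of complex V, stood next (26988). Within complex I the values ran from 502 (Ndufb2, measured over a 4371-base transcript) to 9228 (Ndufb9). Complex II ran from 1155 (Sdhc, a membrane anchor) to 5885 (Sdha, the flavoprotein), and complex III from 2624 (Uqcrq) to 11161 (Uqcrh). Complex V ran from 360 (Atp5s, a coupling factor) to the value of Atp5b. The assembly factors of complex I, which help build it but do not stay in it, were lower than most subunits, with a median of 727.5 and a range from 193 (Ndufaf6) to 964 (Ndufaf2).

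Tissue isoforms separated clearly in level. Cox4i1 was 241.4 times its hypoxia-associated counterpart Cox4i2 per kb, Cox6b1 was 219.5 times the testis form Cox6b2, and Ndufa4 was 138.4 times Ndufa4l2. Cox7a2 was 89.7 times Cox7a1, and Cox6a1 was 52.5 times Cox6a2; Cox7a1 and Cox6a2 are the forms of heart and muscle. The 3 genes that encode the c subunit of complex V were closer to each other, with Atp5g3 2.6 times Atp5g2 and 10.4 times Atp5g1 per kb. Atp5g1 was measured over a 4715-base transcript, against 731 bases for Atp5g2 and 723 for Atp5g3. Before division by length, Atp5g1 (5055 normalized counts on average) lay above Atp5g2 (3205) and below Atp5g3 (8090), so their order depends on the length used. Cox6b2, Cox7a1, Ndufa4l2 and Cox4i2 were the members with the lowest levels, and their differences between groups had the widest errors among the nuclear-encoded genes.

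Promoters of the nuclear-encoded genes carried motifs of NRF1, ETS factors (the family of GABPA, also called NRF2) and YY1, which are known regulators of these genes, more often than promoters at large. RefSeq promoters (GRCm38.p6, 250 bases before to 50 after the start) were found for 74 of the 90 genes and were searched on both strands. The core of the NRF1 motif, CGCATGCG, was present in 11 of 74 (14.9%) against 2.07% of 27025 genes, the ETS motif CCGGAAG in 18 (24.3%) against 9.93%, and the YY1 motif AAGATGGCG in 8 (10.8%) against 1.64%. At least 1 of the motifs was present in 30 (40.5%) against 12.81%, and overlaps between motifs were not removed. A match is a string of letters and was not tied to binding. The 27025 genes were not limited to the 17202 genes analysed here. They were not matched to the set for base content or for the number of promoters per gene. Promoter stretches from 120 bases before to 30 bases after the start are shown for Atp5k (chr5:108434370-108434519, minus strand), Atp5j (chr16:84834947-84835096, minus strand) and Ndufaf8 (chr11:120098814-120098963, plus strand), with the motifs in capitals: the NRF1 core and an ETS motif in reverse in Atp5k, a YY1 and an ETS motif in Atp5j, and an ETS and a YY1 motif in Ndufaf8.
Atp5k: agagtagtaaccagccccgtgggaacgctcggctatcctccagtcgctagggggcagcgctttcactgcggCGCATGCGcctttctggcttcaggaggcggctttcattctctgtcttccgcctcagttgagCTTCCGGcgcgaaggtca
Atp5j: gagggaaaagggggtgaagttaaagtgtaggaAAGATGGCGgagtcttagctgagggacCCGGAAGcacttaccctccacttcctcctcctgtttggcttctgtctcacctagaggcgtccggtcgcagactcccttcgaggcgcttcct
Ndufaf8: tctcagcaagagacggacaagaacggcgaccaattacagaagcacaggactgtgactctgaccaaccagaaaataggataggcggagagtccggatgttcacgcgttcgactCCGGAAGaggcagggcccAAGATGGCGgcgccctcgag

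The first question was whether the deletion changed these genes in vehicle-treated mice. None of the 103 genes passed the test in VEH-CD against VEH-WT (limma, adjusted p under 0.05, where 0.257% of all 17111 genes tested passed). At an unadjusted p under 0.05, 0 genes of the set were higher (5.07% of all genes) and 1 was lower (6.73% of all genes), Cox6b2. Most nuclear-encoded genes nevertheless lay on 1 side: 82 of 90 were above 0, with a median log2 fold change of 0.07, while 49.3% of all genes tested were above 0. All 36 complex I subunits, all 4 genes of complex II and all 8 of complex III were above 0, and the exceptions were Atp5d, Atp5g1, Cox6a2, Cox6b2, Cox7c, Ndufa4l2, Ndufaf5 and Ndufaf6. The mitochondrial-encoded genes were split, with 7 of 13 above 0 and a median of 0.02.

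These small shifts of the nuclear-encoded genes followed single mice. Their median, relative to the mean of VEH-WT, was 0.12, -0.06 and 0.15 in the 3 VEH-CD mice and 0.05, -0.03 and -0.02 in the 3 VEH-WT mice. VEH-CD mouse 2 thus lay below all VEH-WT mice and the other two above them. Atp5b measured 53025, 51952 and 51848 normalized counts in VEH-WT and 53865, 51439 and 52973 in VEH-CD. Ndufb4, an accessory subunit of complex I, measured 1428, 1248 and 1313 in VEH-WT and 1554, 1361 and 1531 in VEH-CD (log2 fold change 0.16 ± 0.08 SE, limma adjusted p = 0.455). The groups overlapped for both genes. Without VEH-CD mouse 2 the median over the nuclear-encoded genes was 0.15. In that fit 12 of these genes were higher at an unadjusted p under 0.05 (6.67% of all genes). Without VEH-CD mouse 1 or 3 the median was 0.04, with 0 higher in either case. The share of all genes without mouse 1 or 3 is not given, so these counts of 0 cannot be set against it.

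Cox6a2, the muscle form of a complex IV subunit, came next to Cox6b2. It measured 303, 274 and 313 in VEH-WT and 224, 212 and 299 in VEH-CD, so that 1 VEH-CD mouse lay within the VEH-WT range (log2 fold change -0.29 ± 0.14 SE, limma adjusted p = 0.442). The other forms of low level overlapped between these groups as well. Cox7a1 ran from 23.1 to 32.2 in VEH-WT and from 24.7 to 38.3 in VEH-CD, Cox4i2 from 67.0 to 75.6 and from 61.8 to 103, and Ndufa4l2 from 77.4 to 99.1 and from 72.4 to 95.8.

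In treated mice the nuclear-encoded genes leaned the other way. In VERCUR-CD against VERCUR-WT 15 of 90 were above 0 (median log2 fold change -0.04) and 51.6% of all genes were. No gene of the set passed the test (0.146% of all genes did). At an unadjusted p under 0.05, 1 was higher (2.19% of all genes), Ndufaf1, and 0 were lower (1.91%). The mitochondrial-encoded genes had 11 of 13 above 0 and a median of 0.11. The leaning of the nuclear-encoded genes rested on 1 mouse: without VERCUR-CD mouse 2 their median was 0.02 and 56 of 90 were above 0. Next to Ndufaf1 stood Atp5g1, a c subunit gene, and Atp5d, the delta subunit, both of complex V. Atp5g1 measured 4666, 5839 and 5305 in VERCUR-WT and 5137, 4309 and 4652 in VERCUR-CD (log2 fold change -0.16 ± 0.09 SE, limma adjusted p = 1). Atp5d measured 8086, 9770 and 9044 in VERCUR-WT and 8772, 6955 and 8195 in VERCUR-CD (-0.17 ± 0.09). Both genes overlapped between the groups, and VERCUR-CD mouse 2 was the lowest of the 6 mice. The opposite leaning of the 90 genes in the 2 genotype comparisons was not established as a difference: the interaction of genotype and treatment passed the test for 0 genes of the set (0% of all genes), and at an unadjusted p under 0.05 for 0 higher (3.72% of all genes) and 0 lower (2.33%), with a smallest adjusted p of 0.816. Its median was -0.11 over the nuclear-encoded and 0.07 over the mitochondrial-encoded genes, and 82 of the 90 nuclear-encoded genes were below 0 (median over all genes, 0.01). Without VERCUR-CD mouse 2 the nuclear-encoded median was -0.05, with 12 of 90 above 0. The nuclear-encoded genes with the smallest p were Ndufv3 (-0.25 ± 0.14 SE) and Ndufb6 (-0.18 ± 0.11), subunits of complex I, and Sdhb (-0.16 ± 0.10), the iron-sulfur subunit of complex II. Other protein-coding genes with a transcript under 1 kb had a median of -0.11 too.

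**Figure D2:**
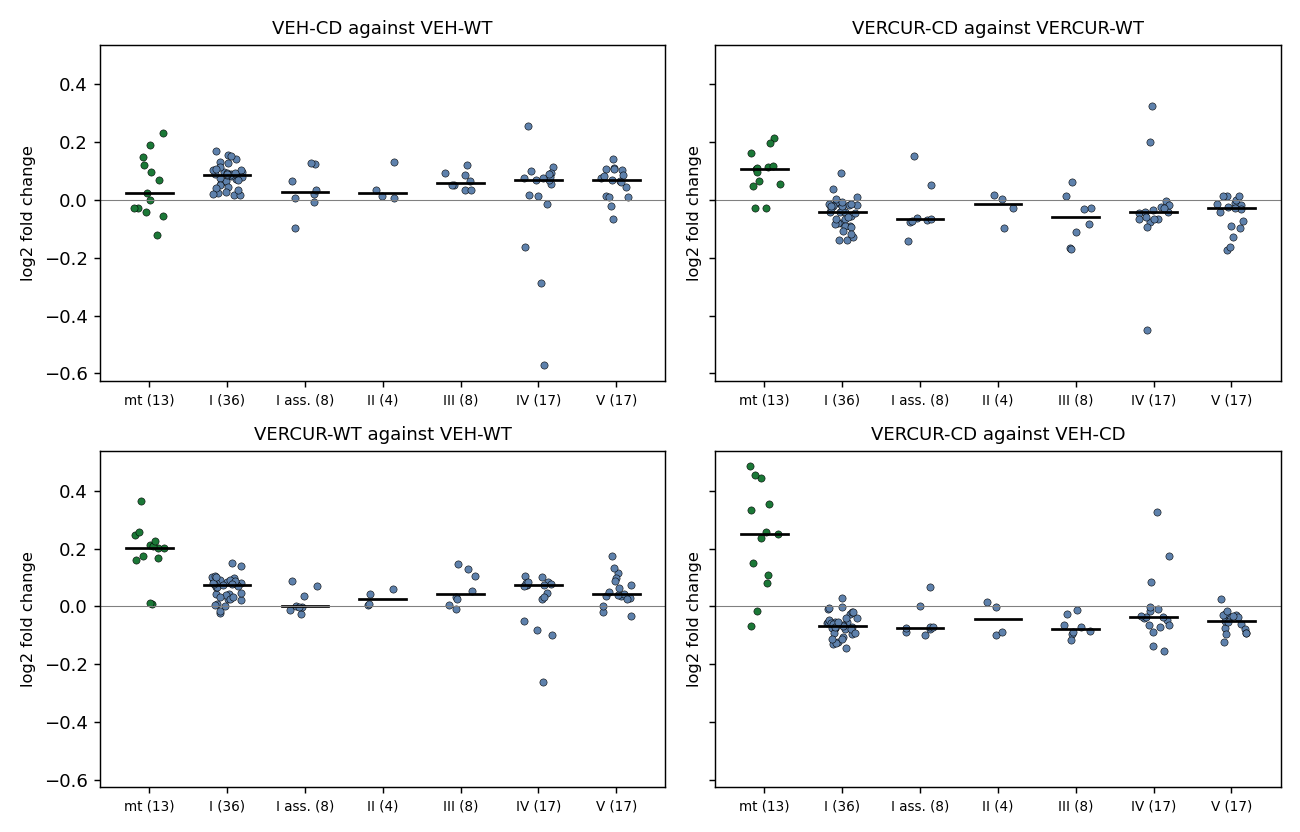
Log2 fold changes of the 103 genes in the 4 comparisons of 2 groups, by genome and complex, with 1 point per gene, the number of genes in parentheses (I ass., complex I assembly factors) and a bar at the median. Nuclear-encoded medians lie between -0.08 and 0.09 in every panel, and the mitochondrial-encoded medians lie at 0.20 and 0.25 in both treatment comparisons; no gene passed the test.

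Over both treatments, CD against WT also gave 0 genes of the set (0.38% of all genes passed). The 2 genes nearest to the threshold were Ndufaf1 and Cox6b2, the only ones with an unadjusted p under 0.05, 1 higher (4.78% of all genes) and 1 lower (4.86%). Ndufaf1, an early assembly factor of complex I, measured 987, 986 and 987 normalized counts in VEH-WT and 1045, 1060 and 1126 in VEH-CD. It measured 923, 979.9 and 1008 in VERCUR-WT and 1132, 1026 and 1079.8 in VERCUR-CD. All 6 CD mice lay above all 6 WT mice (log2 fold change 0.14 ± 0.05 SE, limma adjusted p = 0.325). Cox6b2 measured 34.8, 45.03 and 34.8 in VEH-WT, 25.1, 20.3 and 31.1 in VEH-CD, 24.9, 36.1 and 34.5 in VERCUR-WT and 29.7, 20.7 and 19.2 in VERCUR-CD, and VERCUR-WT mouse 1 overlapped the CD mice (log2 fold change -0.51 ± 0.17 SE, limma adjusted p = 0.347). Cox6b2 had the lowest mean of the 103 genes, 29.7 normalized counts, and its values differ by few reads.

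For transcripts under 1 kb, the shift of the nuclear-encoded genes from mouse to mouse was shared with other genes of the same length. The 51 nuclear-encoded genes with a transcript under 1 kb had medians of 0.15, -0.08 and 0.17 in the 3 VEH-CD mice, and the other 748 protein-coding genes of that length that were tested had 0.16, -0.05 and 0.16. In VERCUR-CD they had 0.14, -0.13 and 0.04 against 0.14, -0.11 and 0.06. The 39 nuclear-encoded genes of 1 kb or longer moved less, from -0.10 to 0.11 over the 12 mice, and the other 13846 protein-coding genes of that length lay between -0.03 and 0.01. The median of these 39 genes thus moved more than that of the 13846 other genes. Those other genes are most of the genes tested, and their transcripts have no upper limit of length. Their median near 0 therefore cannot show whether genes about as long as these 39 shared the shift. In the 3 VEH-CD mice the medians of the 39 genes were 0.09, -0.02 and 0.105, against -0.025, -0.005 and -0.02 for the 13846 others. For VEH-CD against VEH-WT, 73.5% of the other short genes were above 0, with a median of 0.08, and the median of the short members of the set was also 0.08. Sdha, with a 2900-base transcript, measured 16971.5 ± 91.8 (SD, n = 3) in VEH-WT, 17049 ± 277 in VEH-CD, 17006.5 ± 302 in VERCUR-WT and 17240 ± 572 in VERCUR-CD, and in VERCUR-CD mouse 2 it was at its highest (17899), unlike most of the set. The part of transcript length in the results was not tested. In RNA of whole tissue, fewer cells of a type and less RNA per cell cannot be told apart.

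**Figure D3:**
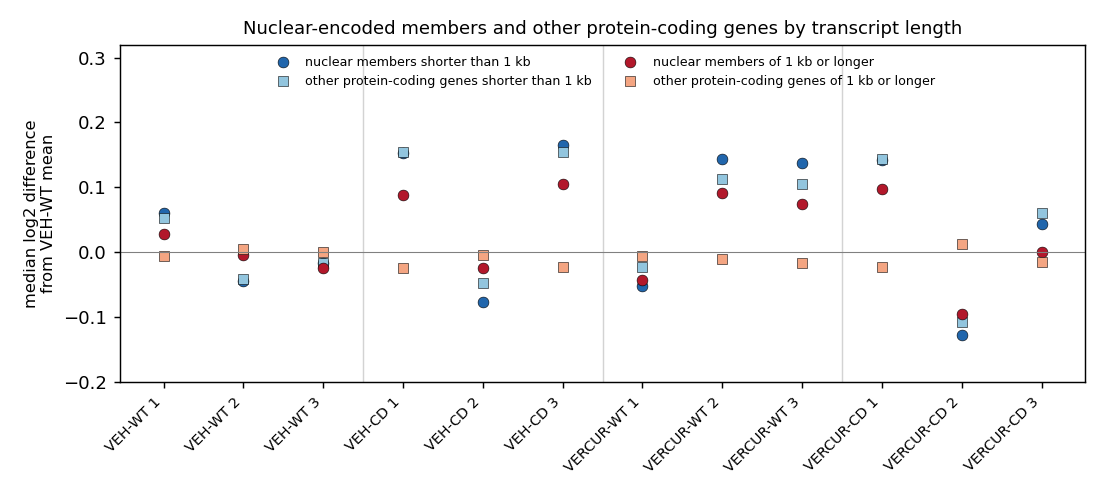
Median log2 difference from the mean of VEH-WT in each of the 12 mice, for nuclear-encoded genes of the set (circles) and other protein-coding genes (squares), with transcripts shorter than 1 kb in blue and of 1 kb or longer in red. The blue circles and squares move together, from -0.13 and -0.11 in VERCUR-CD mouse 2 to 0.17 and 0.16 in VEH-CD mouse 3, while the light red squares stay near 0.

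The second question was whether VERCUR changed these genes. No gene of the set passed the test in VERCUR-CD against VEH-CD, VERCUR-WT against VEH-WT or VERCUR against VEH over both genotypes, and neither did any other gene (0% in each of the 3 comparisons, limma, adjusted p under 0.05). The mitochondrial-encoded genes nevertheless lay on the higher side. Over both genotypes 12 of 13 were above 0, with a median log2 difference of 0.23, and 8 had an unadjusted p under 0.05, all higher (1.45% of all genes). None of the 103 genes was lower at that level (1.51% of all genes). The 90 nuclear-encoded genes divided evenly, 45 above and 45 below 0, and none had an unadjusted p under 0.05; without VERCUR-CD mouse 2, 70 were above 0, with a median of 0.03. The count of 8 mitochondrial-encoded genes was 5 without VEH-WT mouse 2, VEH-CD mouse 2, VERCUR-WT mouse 1, VERCUR-CD mouse 2 or VERCUR-CD mouse 3, where 0.912% to 1.20% of all genes were higher at that level. The 13 genes come from joined transcripts of 1 small genome and are not independent of each other.

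Markers of several other cells leaned to 1 side with the treatment as well, though not in every mouse. Over both genotypes all 5 striatal markers and all 4 oligodendrocyte markers were below 0, with medians of -0.57 and -0.30. All 4 astrocyte, all 4 microglia and all 3 endothelial markers were above 0, with medians of 0.13, 0.10 and 0.10. Of the 6 cortical neuron markers 2 were above 0, with a median of -0.004. All 4 red blood cell markers were below 0, with a median of -0.05. Of the 6 muscle markers 3 were above 0 (median -0.03), and of the 3 choroid plexus markers 2 were (median 0.03). In the limma fit 0 of these markers passed the test. At an unadjusted p under 0.05, 1 astrocyte and 1 microglia marker were higher (1.45% of all genes). At that level 1 striatal, 1 cortical neuron and 1 muscle marker were lower (1.51% of all genes). The mice with the highest mitochondrial-encoded medians, VERCUR-CD mouse 2 (0.45), VERCUR-CD mouse 3 (0.38) and VERCUR-WT mouse 1 (0.28), had striatal medians of -1.15, -1.12 and -1.27 relative to VEH-WT. VERCUR-WT mouse 2 had a striatal median of -1.36 and a mitochondrial-encoded median of 0.16. VERCUR-WT mouse 3 had 0.83 and 0.18, and VERCUR-CD mouse 1 had 0.45 and 0.01. The oligodendrocyte median of VERCUR-WT mouse 3 was 0.185. The astrocyte markers summed to 38400 to 45174 in the treated and 32798 to 41086 in the vehicle mice. The part of these cells in the mitochondrial-encoded values was not tested.

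Per mouse, the mitochondrial-encoded share of all normalized counts was 3.04%, 2.49% and 3.06% in VEH-WT (mean 2.864% ± 0.321, SD, n = 3) and 3.16%, 2.56% and 2.96% in VEH-CD (2.891% ± 0.305). It was 3.43%, 3.10% and 3.26% in VERCUR-WT (3.266% ± 0.165) and 2.92%, 3.94% and 3.57% in VERCUR-CD (3.477% ± 0.518). The 3 VERCUR-WT mice lay above all VEH-WT mice, while VERCUR-CD mouse 1 lay among the VEH-CD mice. With the chromosome 1 copies added, the group means were 4.805%, 4.998%, 5.442% and 5.773% in the same order of groups, which left that order in place. Without VERCUR-CD mouse 2 the mean of that group was 3.243%.

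**Figure D4:**
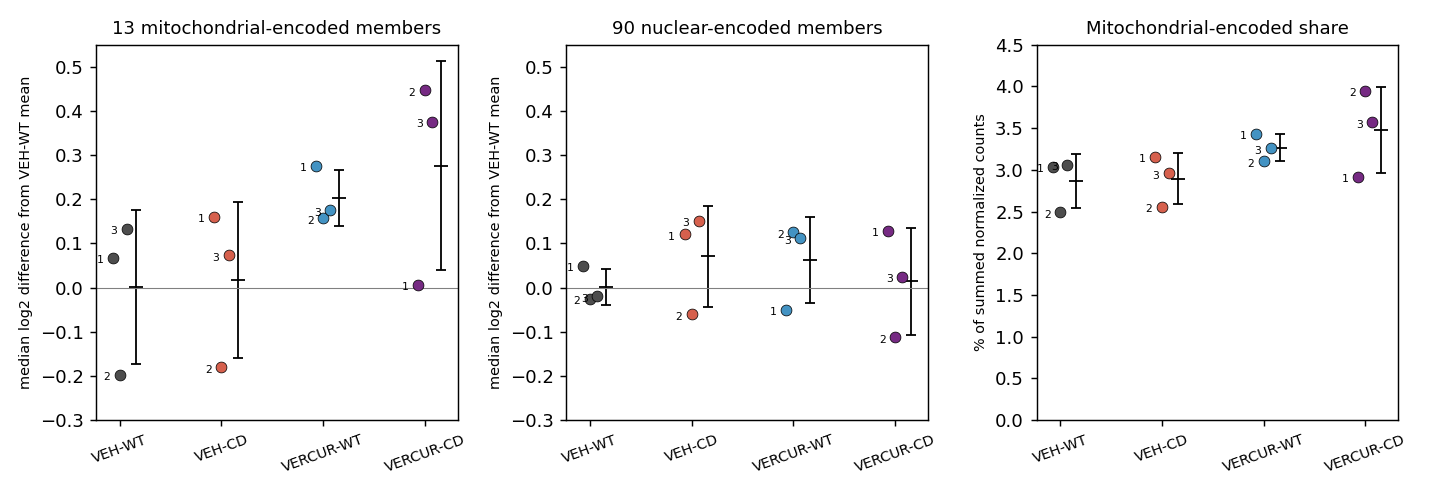
Values of each of the 12 mice (numbered points) with the group mean and SD (bars, n = 3). From left to right they are the median log2 difference of the 13 mitochondrial-encoded genes from the mean of VEH-WT, the same for the 90 nuclear-encoded genes, and the mitochondrial-encoded share of all normalized counts; VERCUR-CD mouse 2 is highest in the left and right panels (0.45 and 3.94%) and lowest in the middle (-0.11).

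The genes with the lowest unadjusted p in the treatment comparison belonged to complexes I and III. mt-Nd2 measured 116032, 92078 and 116158 in VEH-WT and 115299, 92276 and 107137 in VEH-CD. It measured 130113, 121511 and 119399 in VERCUR-WT and 108298, 156715 and 139812 in VERCUR-CD, so that 5 of the 6 treated mice lay above all 6 vehicle mice (log2 difference 0.28 ± 0.09 SE, limma unadjusted p = 0.0106, adjusted p = 1). mt-Cytb had 189066 to 238471 in the 6 vehicle mice and 223370 to 279843 in the 6 treated mice (0.22 ± 0.07, limma unadjusted p = 0.0112). mt-Nd6, on the other strand, differed by 0.19 ± 0.06 (limma unadjusted p = 0.0108), mt-Nd4 by 0.27 ± 0.10 and mt-Nd1 by 0.23 ± 0.08. The remaining genes of the 8 were mt-Atp8 (0.31 ± 0.13), mt-Nd5 (0.36 ± 0.15) and mt-Co1 (0.21 ± 0.09). Without VERCUR-CD mouse 2 the difference was 0.23 for mt-Nd5, 0.14 for mt-Co1, 0.22 for mt-Nd2 and 0.205 for mt-Nd4.

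Within genotypes the pattern was thinner. In VERCUR-CD against VEH-CD, 5 mitochondrial-encoded genes were higher at an unadjusted p under 0.05 (2.09% of all genes) and 0 genes of the set were lower (1.44%): mt-Nd2, mt-Nd4, mt-Nd5, mt-Cytb and mt-Atp8, with log2 differences of 0.24 to 0.46 and a smallest adjusted p of 0.867. mt-Nd5 measured 117096, 91766 and 109988 in VEH-CD and 101690, 204049 and 146875 in VERCUR-CD, so that VERCUR-CD mouse 1 lay within the vehicle mice and mouse 2 far above them. Its difference was 0.46, and 0.21 without VERCUR-CD mouse 2. Without that mouse mt-Atp8 went from 0.44 to 0.285, mt-Nd2 from 0.35 to 0.24 and mt-Nd4 from 0.33 to 0.20. In place of 5 genes at that level, 1 was found without VERCUR-CD mouse 2 (0.917% of all genes) and 8 without VERCUR-CD mouse 1 (9.13% of all genes). The count was 0 without VERCUR-CD mouse 3 or VEH-CD mouse 2, and 3 without VEH-CD mouse 3 or VERCUR-WT mouse 2. For the counts of 0 and 3 the share of all genes is not given, so they cannot be set against it. In VERCUR-WT against VEH-WT all 13 were above 0 with a median of 0.20, and 1, mt-Nd6, had an unadjusted p under 0.05 (higher, 1.97% of all genes; lower, 0 genes of the set and 3.25% of all genes). Among the nuclear-encoded genes 8 of 90 were above 0 in VERCUR-CD against VEH-CD and 77 of 90 in VERCUR-WT against VEH-WT, with medians of -0.06 and 0.06, and none had an unadjusted p under 0.05. Without VERCUR-CD mouse 2, 49 of 90 were above 0 in the CD comparison, with a median of 0.01. With all mice and by complex, 1 of 36 complex I subunits, 1 of 4 genes of complex II, 0 of 8 of complex III, 3 of 17 of complex IV and 1 of 17 of complex V were above 0 in the CD comparison, against 34, 4, 7, 13 and 15 in the WT comparison. The nuclear-encoded genes with the smallest p were Ndufv1, the NADH-binding subunit of complex I (-0.11 ± 0.07 SE), Uqcrc1, a core subunit of complex III (-0.12 ± 0.07), and Atp5a1, the alpha subunit of complex V (-0.08 ± 0.05), in CD mice. In WT mice they were Ndufb4 (0.15 ± 0.08), Ndufb6 (0.14 ± 0.07) and Atp5e, the epsilon subunit of complex V (0.17 ± 0.12). The comparisons share groups, so these counts are tied to those given for the genotype.

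The assignment of reads to the chromosome 1 copies changed the picture for 4 mitochondrial-encoded genes. As assigned, the treatment difference over both genotypes was -0.03 ± 0.09 for mt-Atp6, 0.05 ± 0.11 for mt-Nd3, 0.07 ± 0.15 for mt-Co3 and 0.24 ± 0.16 for mt-Co2 (log2, SE). With the copy added to its gene, an alternative chosen after these values were seen, the differences were 0.20 ± 0.09, 0.20 ± 0.08, 0.15 ± 0.08 and 0.17 ± 0.06. All 13 genes then lay between 0.15 and 0.40, and 11 had an unadjusted p under 0.05, all higher, in place of 8. With the values as assigned, 1.45% of all genes were higher at that level. None of the 13 passed the test (limma adjusted p = 1 for each). The count of 11 includes VERCUR-CD mouse 2, without which the count of 8 was smaller.

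**Figure D5:**
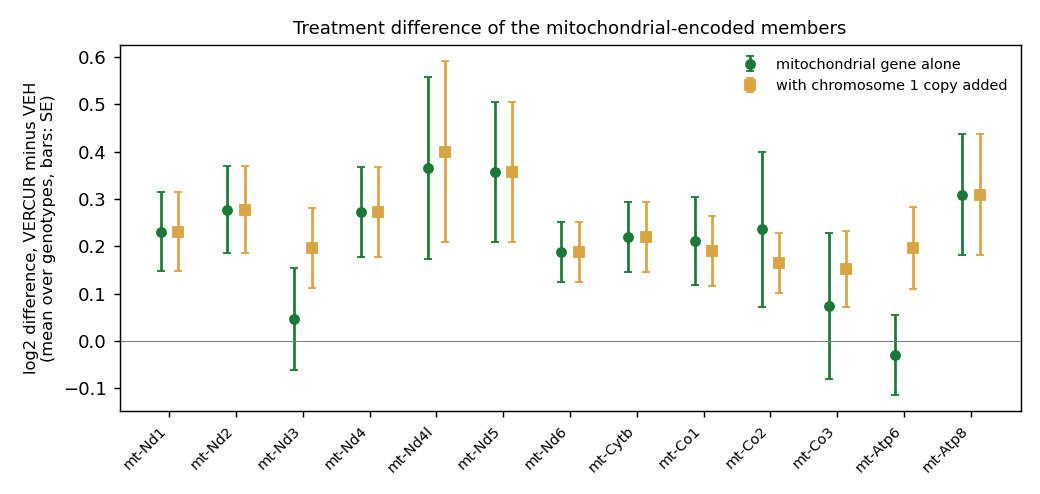
Log2 difference between VERCUR and VEH mice, averaged over the genotypes, for the 13 mitochondrial-encoded genes, with bars of 1 SE. Green circles use the reads assigned to the gene, and yellow squares add those of the chromosome 1 copy; mt-Atp6 goes from -0.03 to 0.20 and mt-Nd3 from 0.05 to 0.20, and the genes without a copy in the table stay in place.

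The direct contrast of the 2 genomes took, in each mouse, the median log2 difference from VEH-WT of the mitochondrial-encoded genes minus that of the nuclear-encoded genes. It was 0.02, -0.17 and 0.15 in VEH-WT, 0.04, -0.12 and -0.08 in VEH-CD, 0.33, 0.03 and 0.06 in VERCUR-WT and -0.12, 0.56 and 0.35 in VERCUR-CD. VERCUR-CD spread most widely (SD 0.35, against 0.08 to 0.16 in the other groups), and both treated groups overlapped with the vehicle groups. VERCUR minus VEH over both genotypes came to 0.23, with a pooled SD between mice of a group of 0.21, and to 0.15 without VERCUR-CD mouse 2. VERCUR-CD minus VEH-CD came to 0.32, and to 0.17 without VERCUR-CD mouse 2. VERCUR-WT minus VEH-WT came to 0.14, and to 0.05 without VERCUR-WT mouse 1. The genotype difference in vehicle mice was -0.05, and 0.03 without VEH-WT mouse 3. In treated mice it was 0.12, and -0.03 without VERCUR-CD mouse 2. As a score over chosen genes, this contrast has no p.

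The error of the data limited what could be seen. The median half-width of the 95% interval in a comparison of 2 groups was 0.19 (log2) for the nuclear-encoded and 0.29 for the mitochondrial-encoded genes. The median coefficient of variation within a group ran from 3.8% in VEH-WT to 9.0% in VERCUR-CD for nuclear-encoded genes and from 6.4% in VERCUR-WT to 20.6% in VERCUR-CD for mitochondrial-encoded genes.

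Other genes of the same pathways gave few differences. Dnajc30, which encodes a mitochondrial protein known to bind the ATP synthase, lies within the deletion and was the only gene of the pathway lists below that passed the test. It measured 1849, 1772 and 1821 in VEH-WT, 1090.0, 977 and 962 in VEH-CD, 1869, 1933 and 1997 in VERCUR-WT and 961, 835 and 995 in VERCUR-CD. It fell by 0.85 ± 0.08 SE (log2) in VEH-CD against VEH-WT (limma adjusted p = 0.000118) and by 1.06 ± 0.08 in VERCUR-CD against VERCUR-WT (limma adjusted p = 1.15e-05), with no overlap between genotypes. Of 41 assembly factors of the chain outside the rule, 31 genes for the expression of mitochondrial DNA, 18 of the citrate cycle and 18 table rows of glycolysis genes, 0 passed the limma test in any comparison. In VEH-CD against VEH-WT, 2 of the 41 assembly factors were higher at an unadjusted p under 0.05 (5.07% of all genes). Of the 31 mitochondrial DNA expression genes 2 were lower (6.73% of all genes). The list medians were 0.05 and 0.02. Of the genes of the citrate cycle and of glycolysis, 1 each was higher (5.07% of all genes), with list medians of 0.02 and 0.03. In VERCUR-CD against VEH-CD 2 of the 18 glycolysis rows were lower at that level (1.44% of all genes), with a list median of -0.11.

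The 14 regulators of mitochondrial biogenesis, among them known activators of genes of the set, lay lower in VEH-CD than in VEH-WT in 13 of 14 cases, with a median log2 fold change of -0.20 (49.3% of all genes were above 0). They summed to 15528 to 16684 normalized counts in VEH-CD and 18219 to 18596 in VEH-WT, without overlap. None passed the limma test, and 5 were lower at an unadjusted p under 0.05 (6.73% of all genes): Esrrg (-0.39 ± 0.12 SE), Pprc1 (-0.33 ± 0.15), Ppargc1b (-0.31 ± 0.11), Esrra (-0.24 ± 0.09) and Ppard (-0.19 ± 0.09), with a smallest adjusted p of 0.233. In VERCUR-CD against VERCUR-WT 6 of 14 were above 0 with a median of -0.02. The lower side was not particular to VEH-CD: the regulators summed to 16780 to 17436 in VERCUR-WT and 16291 to 18070 in VERCUR-CD, so that VEH-WT stood above the other 3 groups without overlap. In VERCUR-WT against VEH-WT 5 of 14 were above 0, with a median of -0.09. In VERCUR-CD against VEH-CD 11 of 14 were above 0, with a median of 0.03. There 1 was higher at an unadjusted p under 0.05 (2.09% of all genes), Ppargc1a (0.27 ± 0.11 SE, limma adjusted p = 0.867). For the interaction 10 of 14 were above 0, with a median of 0.21. At that level 3 were higher (3.72% of all genes), Esrrg, Ppargc1b and Sirt1, and none passed the limma test (adjusted p = 0.816 for each).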

How the data were processed

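The authors made paired-end mRNA libraries (reads of 100 bases) from 12 cortices and mapped the reads to GRCm38 with STAR 2.5.3a. The counting program, the annotation release, the normalization and the strand setting are not given in the sources used here. The deposited values were normalized counts, neither raw counts nor another named unit. Low values of each mouse were whole multiples of 1 step (100% within 0.1 of a step), which gave 40287299 to 56481666 reads per mouse.

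Groups came from the sample titles, 3 mice each. Values were taken as log2(normalized count + 1), and the 17111 genes with a mean of at least 10 entered 1 limma fit (version 3.58.1, R 4.3.3) with 4 group means and an intensity trend. P-values are two-sided, with Benjamini-Hochberg adjustment over all genes tested and a threshold of 0.05. Nothing states that the mice of a group were raised or handled separately, so p-values measure the spread between these samples. The pseudocount understates changes of low genes. The fit was tested on simulated data.

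Levels per kb used the longest principal transcript of GENCODE M21 (GRCm38), and shared stretches were identical windows of 100 bases between transcripts. The members and lists were chosen with earlier results of these data known. The genes named were every mitochondrial-encoded gene, every gene past the threshold, the 3 nuclear-encoded genes with the smallest p per comparison, the highest and lowest per kb in each complex, and the tissue isoforms; other genes were chosen after their values were seen. Of the isoforms listed, Cox7b2, Cox8b and Cox8c were not analysed here. The authors' tables of relative expression of selected genes were not used.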

Additional observations from a re-analysis of the deposited data

How the results depend on the processing

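In each of the 7 comparisons 0 genes of the set passed the test, and this held in all 172 recomputed counts, which covered pseudocounts of 0.1 and 5, no filter, a mean of at least 50, a coefficient of variation under 20% in every group, 3 other scalings, no intensity trend, only the groups compared, the replicate number as a block, each mouse left out and, added after seeing the data, limma-voom on the recovered whole reads and the chromosome 1 copies added. The 18 differences with an unadjusted p under 0.05 were not reversed in any of the 429 recomputed values. None of these values had an adjusted p under 0.05. Not all kept a sign, because quantile normalization gives the highest ranks the same value in every mouse. It left a difference of 0 for mt-Co1 over both genotypes and for mt-Cytb in VERCUR-CD against VEH-CD. The planned negative binomial count test on recovered reads was not run, and limma-voom was run on those reads in its place.

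Without its highest gene, mt-Co1, the mitochondrial-encoded share was 1.764% in VEH-WT, 1.801% in VEH-CD, 2.035% in VERCUR-WT and 2.189% in VERCUR-CD, and with the copies added it was 4.805%, 4.998%, 5.442% and 5.773%; the construction of the sums sets these values. Leaving out 1 mouse moved it within 2.765% to 3.049%, 2.758% to 3.058%, 3.182% to 3.346% and 3.243% to 3.755%. Means in place of medians, protein-coding genes as the denominator, genes with few shared stretches and nuclear-encoded genes of 1 kb or longer were tried too. The mitochondrial minus nuclear difference for VERCUR against VEH over both genotypes ranged from 0.15 without VERCUR-CD mouse 2 to 0.32 without VERCUR-CD mouse 1, and was 0.12 under quantile normalization. For VERCUR-CD against VERCUR-WT it ranged from -0.03 without VERCUR-CD mouse 2 to 0.32 without VERCUR-CD mouse 1. For CD against WT over both treatments it ranged from -0.04 to 0.13 and for VEH-CD against VEH-WT from -0.13 to 0.03, so neither kept its sign in every case.

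Mice with the same replicate number did not deviate together: 4 of 18 such pairs had a correlation over 0.1, and 1 of 12 mice correlated best with its own number. With the replicate block, 0 genes of the set passed the test in any comparison, and 0 to 57 of all genes did. With 3 mice a group, differences within the intervals given in the report were not excluded.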
